A study of Mus musculus with 15 samples.

Results

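The fatty acid synthesis and desaturation enzymes described here are 10 genes, Acly, Acss2, Acaca, Fasn, Elovl5, Elovl6, Scd1, Scd2, Fads1 and Fads2, chosen by name as the rows with these symbols in both of the study's expression tables. These are 10 of 56558 genes, of which 54343 are listed for MC38 and 55303 for B16-F10. The 10 were chosen with earlier results of these data known. The study altered Ssbp4, a gene for a single-stranded DNA-binding protein, in 2 mouse tumour cell lines and sequenced polyadenylated RNA from 15 libraries. MC38 is a colon adenocarcinoma line, although the tissue label reads melanoma for every sample, and B16-F10 is a melanoma line. Of the 7 MC38 libraries, 4 were wild type (WT) and 3 carried stable overexpression (OE) of murine Ssbp4 from the retroviral vector pMSCV-IRES-EGFP. The labels name no MC38 group with the empty vector, so the OE cells differed from WT cells by transduction and EGFP as well as by Ssbp4. Of the 8 B16-F10 libraries, 4 were labelled WT and had received Cas9 with a control guide against an intergenic stretch of chromosome 2. The other 4 were labelled knockout (KO) and had received Cas9 with a mixture of Ssbp4 guides by nucleofection. The labels do not say that KO clones were picked, so KO RNA may come from a mixed population.

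Cells build fatty acids from cytosolic acetyl-CoA. ATP citrate lyase (Acly) makes it from citrate, and acetyl-CoA synthetase 2 (Acss2) from acetate. Acetyl-CoA carboxylase (Acaca) turns it into malonyl-CoA, and fatty acid synthase (Fasn) strings malonyl units into palmitate. The elongases lengthen the chain, Elovl6 acting on saturated and monounsaturated chains of palmitate length and Elovl5 mainly on polyunsaturated ones. The stearoyl-CoA desaturases Scd1 and Scd2 place the first double bond to give oleate and palmitoleate, and Fads1 and Fads2 desaturate the dietary polyunsaturated series. Sterol regulatory element-binding proteins, encoded by Srebf1 and Srebf2, are known activators of most of these genes, working at promoters together with the factors NF-Y, which binds CCAAT boxes, and SP1, which binds GC boxes.

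Promoters are shown for 4 of the enzymes because their genes behaved differently in the tests below. Acss2 had the largest fold change in MC38, Fads2 passed the test in both lines, Fasn passed in MC38 and not in B16-F10, and Acaca passed in neither. Each sequence is the 250 bases before a start listed for the gene in RefSeq on GRCm38.p6. All are written 5′ to 3′ on the gene's strand, with capitals marking the motif matches described after them. The Acaca sequence ends in a run rich in C and T followed by AG, as introns do. The Acaca window may therefore lie inside the gene and not at its promoter, which was not tested. Acss2 lies at chr2:155517793-155518042 on the plus strand, Fasn at chr11:120824548-120824797 on the minus strand, Fads2 at chr19:10101504-10101753 on the minus strand and Acaca at chr11:84195188-84195437 on the plus strand.
Acss2: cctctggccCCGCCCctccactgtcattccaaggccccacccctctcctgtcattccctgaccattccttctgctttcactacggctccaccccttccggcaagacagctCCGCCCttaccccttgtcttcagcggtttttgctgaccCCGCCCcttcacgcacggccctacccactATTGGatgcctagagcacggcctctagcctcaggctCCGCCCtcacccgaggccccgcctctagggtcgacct
Fasn: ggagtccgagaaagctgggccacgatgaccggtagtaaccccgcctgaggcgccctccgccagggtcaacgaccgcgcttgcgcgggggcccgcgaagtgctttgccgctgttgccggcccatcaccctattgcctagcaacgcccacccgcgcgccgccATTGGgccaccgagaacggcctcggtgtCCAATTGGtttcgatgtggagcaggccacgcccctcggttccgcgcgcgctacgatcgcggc
Fads2: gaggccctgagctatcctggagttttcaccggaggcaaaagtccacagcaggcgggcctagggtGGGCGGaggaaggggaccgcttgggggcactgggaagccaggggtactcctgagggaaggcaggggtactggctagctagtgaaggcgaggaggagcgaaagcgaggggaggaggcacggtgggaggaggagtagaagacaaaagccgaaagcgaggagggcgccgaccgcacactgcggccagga
Acaca: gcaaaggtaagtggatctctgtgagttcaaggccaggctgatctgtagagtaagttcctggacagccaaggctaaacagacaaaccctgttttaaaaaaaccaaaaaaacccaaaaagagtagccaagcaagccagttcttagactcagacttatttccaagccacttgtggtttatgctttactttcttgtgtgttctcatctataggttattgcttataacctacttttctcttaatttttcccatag

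The RefSeq table held a promoter for 7 of the 10 enzymes, namely these 4 with Acly, Elovl5 and Elovl6. Both strands were searched for 4 motifs, counting overlapping matches. The CCAAT box (letters CCAAT) was found in 33.85% of all 32851 promoter windows of this length, and it occurred 1 time in Acss2, 3 times in Fasn and 2 times in Elovl5. A pair of the Fasn matches overlap on opposite strands in the run CCAATTGG. The GC box (GGGCGG), in 32.74% of windows, occurred 4 times each in Acss2 and Acly and 1 time in Fads2. The E-box CACGTG, in 6.021% of windows, occurred 1 time, in Elovl5. The sterol regulatory element TCACNCCAC, in 1.053% of windows, was found in 0 of the 7 windows. Elovl6 held 0 matches to any of these letters in this window. So did the Acaca window, which may not be the promoter of that gene. These are letter matches in a reference sequence, not measured binding sites.

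Scd1 and Scd2 are close copies, so the longest coding stretch they share, where reads cannot be told apart, is shown as well. Only coding sequences were compared here, not untranslated regions. In the GENCODE M21 transcripts their longest open reading frames (1068 and 1077 bases) were 90.4% identical over 1068 aligned bases. The longest stretch they shared without a difference was 147 bases, at positions 523 to 669 of the Scd1 coding sequence and 532 to 678 of Scd2.
Scd1 and Scd2: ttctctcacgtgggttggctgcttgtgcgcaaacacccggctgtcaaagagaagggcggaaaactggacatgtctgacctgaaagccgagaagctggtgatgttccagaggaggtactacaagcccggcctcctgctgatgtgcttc

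Of the 1028 overlapping 50-base words of the Scd2 coding sequence, 145 also occurred in Scd1. Reads inside such words can be split between the copies by a method that is not given in the sources used here, so levels of Scd1 and Scd2 are partly uncertain against each other. Fads1 and Fads2 were 67.0% identical with a longest shared run of 17 bases, and Elovl5 and Elovl6 56.5% with a run of 10 bases. No 50-base word was common to either of those pairs (0 of 1286 words of Fads2 and 0 of 755 of Elovl6).

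Expression was deposited as FPKM, fragments per kilobase of transcript scaled to the mapped fragments of the library, which is a level per length and can be compared between genes of a library. Differences were tested with limma on log2(FPKM + 1) within each line, over genes with a mean of at least 1 FPKM, and a gene was called higher or lower at a Benjamini-Hochberg adjusted p under 0.05 over all genes tested. This scale understates the change of genes with low FPKM. Whether the libraries within a group are separate cultures is not stated, so these p-values measure a spread between libraries that may be technical. In bulk RNA, fewer cells expressing a gene and less of its RNA per cell cannot be told apart. The steps between low FPKM values put the libraries at 31.95 to 48.35 M counted fragments each.

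Ssbp4 itself moved as labelled. In MC38 it was 13.2, 17.3, 17.0 and 17.6 FPKM in WT libraries and 581, 559 and 462 FPKM in OE libraries (log2 fold change 4.95, adjusted p = 1.12e-09). The FPKM do not separate vector from endogenous transcripts. In B16-F10 it was 32.7, 37.4, 32.4 and 35.4 FPKM in WT and 23.1, 22.0, 24.3 and 19.0 FPKM in KO libraries (log2 fold change -0.62, adjusted p = 0.00869), so 64.1% of the WT level of this RNA was still measured in libraries labelled KO. Of the marker lists, the 8 melanocyte markers were all above 1 FPKM in B16-F10, with a summed level of 11289 to 14571 FPKM. In MC38, the epithelial markers summed to only 6.90 to 10.9 FPKM, with Cdx2 at 0 in all libraries and Epcam at 0 in OE libraries, so most epithelial markers were low or absent in this carcinoma line. The B16-F10 WT libraries stood apart from each other over all genes, with libraries 1 and 2 at -9.42 and -10.3 on the first principal component, libraries 3 and 4 both at 17.8, and KO libraries from -7.81 to -1.91. The labels give no batch that matches this.

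In MC38, 9 of the 10 enzymes rose with Ssbp4 overexpression and 0 fell, and Acaca was the one that did not pass. At an unadjusted p under 0.05 in limma the counts were also 9 and 0, beside 54.3% of all genes tested in either direction. Of all 10748 genes tested in this line, 23.9% were called higher, 23.6% lower and 47.5% were called in either direction. WT and OE libraries did not overlap for the same 9 enzymes, which 25.5% of all genes tested showed in the higher direction and 50.6% in either. The median log2 fold change was 0.51 over the 10 enzymes and -0.0088 over all genes tested. By step, the median was 0.75 for acetyl-CoA supply (2 genes), 0.26 for synthesis (2 genes), 0.41 for elongation (2 genes) and 0.70 for desaturation (4 genes). The first of these lies between unlike values, 1.24 for Acss2 and 0.25 for Acly.

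**Figure D1:**
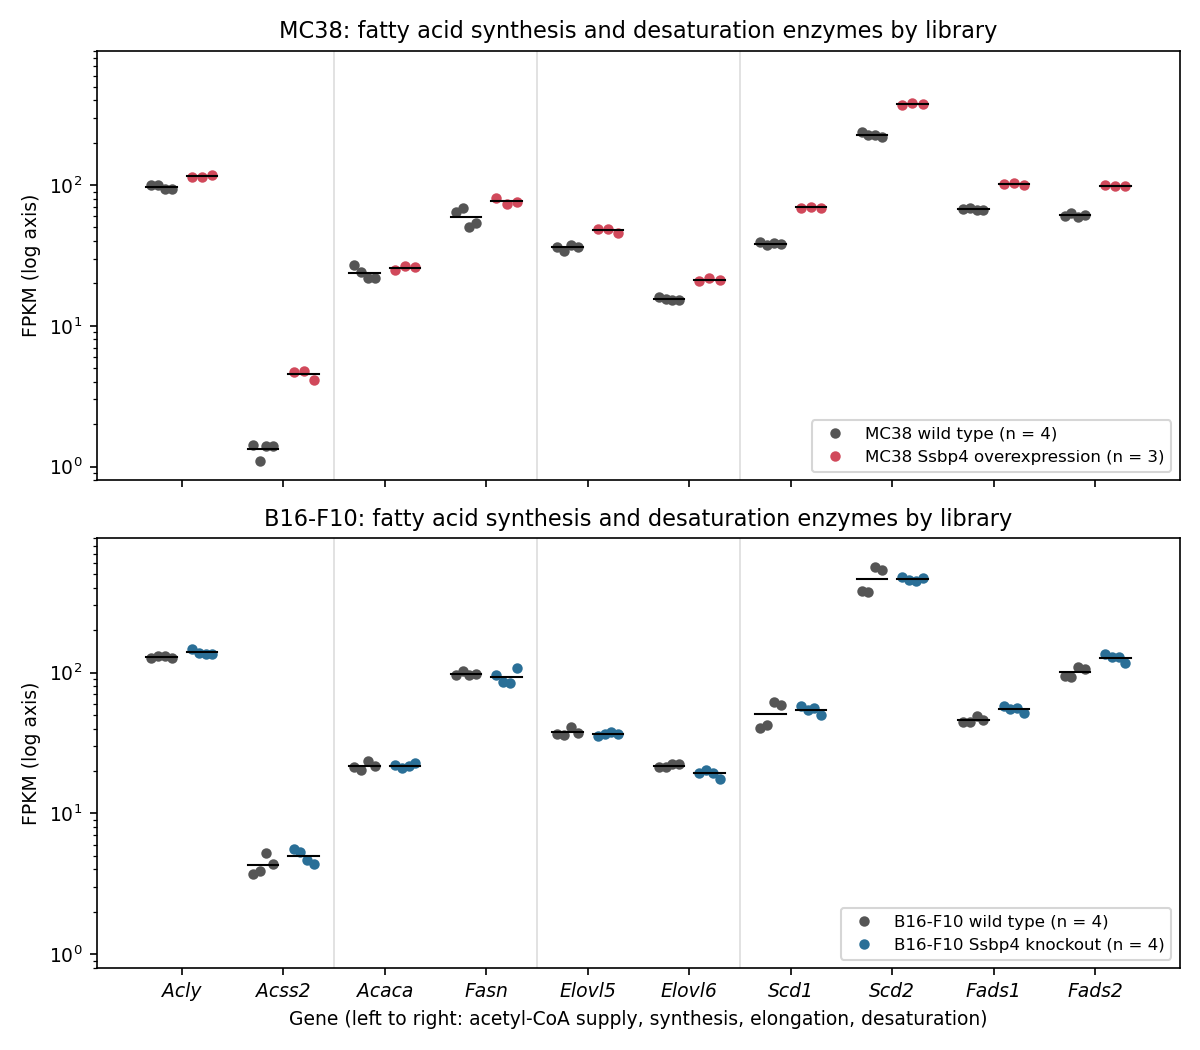
FPKM of each enzyme in each library, on a log axis, for MC38 (top) and B16-F10 (bottom), with a black bar at each group's mean. In MC38 the OE points lie above the WT points for 9 of 10 enzymes, and in B16-F10 Scd1 and Scd2 show WT libraries spread on both sides of the KO libraries.

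Both routes to acetyl-CoA were higher in MC38 OE cells. Acss2 was 1.43, 1.10, 1.39 and 1.41 FPKM in WT libraries and 4.71, 4.75 and 4.13 FPKM in OE libraries. Every OE library was above every WT library, and the ratio of mean FPKM was 3.39, the largest of the set (log2 fold change 1.24 ± 0.08 SE, adjusted p = 9.93e-07). Acss2 was nevertheless the lowest-expressed enzyme in both MC38 groups. Acly, the citrate route, was 99.4, 100.2, 94.4 and 94.1 FPKM in WT and 114.0, 114.4 and 117.4 FPKM in OE libraries. The groups lay apart, but the change was the smallest of those that passed (log2 fold change 0.25 ± 0.04 SE, adjusted p = 2.64e-04). Acly gained 18.2 FPKM and Acss2 3.20 FPKM, so the larger absolute gain was in Acly and the larger relative gain in Acss2. In GENCODE M21, exons of Acss2 overlap exons of Gss and Ggt7 on the opposite strand. Gss fell in MC38 from 25.7 to 18.6 FPKM and Ggt7 rose from 4.00 to 6.34 FPKM. The library kit was stranded, but the strand setting of the counting is not given in the sources used here, so the Acss2 level is uncertain to that extent.

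The synthesis step had the smallest median change. Fasn was 64.8, 68.7, 50.1 and 53.9 FPKM in WT and 81.4, 73.9 and 75.9 FPKM in OE libraries. The OE libraries were all higher, but the WT libraries varied by 14.8% (coefficient of variation), the widest spread of the set in that group (log2 fold change 0.38 ± 0.10 SE, adjusted p = 0.00829). Without the filter on low values the Fasn call was lost, at adjusted p = 0.0570. Acaca was 26.9, 24.1, 22.0 and 21.9 FPKM in WT and 25.1, 26.7 and 26.0 FPKM in OE libraries. WT library 1 was above all OE libraries, and the change did not pass (log2 fold change 0.13, 95% interval -0.02 to 0.28, adjusted p = 0.140). Without WT library 1 it passed, at a log2 fold change of 0.19 and adjusted p = 0.0114.

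Both elongases rose by similar amounts. Elovl5 was 36.3, 34.1, 37.3 and 36.4 FPKM in WT and 49.0, 48.4 and 45.5 FPKM in OE libraries (log2 fold change 0.39 ± 0.04 SE, adjusted p = 4.19e-05). Elovl6 was 15.9, 15.4, 15.2 and 15.2 FPKM in WT and 20.7, 22.0 and 21.1 FPKM in OE libraries (log2 fold change 0.44 ± 0.04 SE, adjusted p = 1.58e-05). Neither gene's groups overlapped.

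The 4 desaturases rose in every OE library with small spread. Scd1 was 39.4, 37.3, 38.5 and 38.4 FPKM in WT and 69.1, 70.2 and 69.0 FPKM in OE libraries (log2 fold change 0.84 ± 0.03 SE, adjusted p = 3.51e-08). Scd2 was 237.9, 228.7, 225.6 and 219.8 FPKM in WT and 368.3, 380.7 and 374.6 FPKM in OE libraries (log2 fold change 0.71 ± 0.03 SE, adjusted p = 1.43e-07). Scd2 alone gained 147 FPKM, more than any other enzyme of the set, and the stretches it shares with Scd1 make the division of this gain between the copies uncertain. Fads2, the desaturase that starts the polyunsaturated series, was 60.8, 62.8, 59.0 and 60.9 FPKM in WT and 100.7, 98.5 and 97.8 FPKM in OE libraries (log2 fold change 0.69 ± 0.03 SE, adjusted p = 1.29e-07). Fads1, which acts later in that series, was 67.7, 68.4, 66.8 and 67.0 FPKM in WT and 101.5, 103.6 and 100.6 FPKM in OE libraries (log2 fold change 0.59 ± 0.03 SE, adjusted p = 1.82e-07). No WT library reached any OE library for these 4 genes. The 4 lie on chromosome 19, where the median log2 fold change of the 375 genes tested was -0.016. For the other enzymes the median was -0.11 on chromosome 2 (Acss2) and 0.044 on chromosome 11 (Acly, Acaca and Fasn). It was -0.0039 on chromosome 3 (Elovl6) and 0.015 on chromosome 9 (Elovl5). With each chromosome centred, the log2 fold change was 1.35 for Acss2 and 0.20 for Acly, both still called.

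Markers of other cell types also moved in MC38. Of 7 fibroblast markers, 4 were tested and all 4 were called higher, beside 23.9% of all genes tested. Among them, Lum (0.219 to 2.19 FPKM) and Pdgfrb (0.424 to 1.88 FPKM) passed the filter only through OE libraries, so their direction was fixed. The summed level of the 7 was 82.4 to 87.9 FPKM in WT and 386 to 394 FPKM in OE libraries. The rise lay mostly in Dcn (65.6 to 320 FPKM) and Pdgfra (17.6 to 66.1 FPKM), whereas the collagen gene Col1a1 (0.0627 and 0.178 FPKM) and the smooth muscle actin gene Acta2 (0.0889 and 0.102 FPKM) were near 0 in both groups. Of 9 epithelial markers, 2 were tested and they moved in opposite directions, the keratin gene Krt8 from 3.22 to 9.45 FPKM (called higher) and Krt18 from 3.23 to 0.0607 FPKM (called lower). Krt18 passed the filter only through WT libraries, so its direction was fixed. Of 8 leukocyte markers, 1 was tested, Cd68, and it was called higher (2.49 to 3.52 FPKM), and of 5 endothelial markers 1 was tested and called lower. The part of these markers in the change of the 10 enzymes was not tested. Adipocyte markers summed to at most 0.250 FPKM in any MC38 library.

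In B16-F10, 2 of the 10 enzymes were called higher in KO libraries, Fads1 and Fads2, and 0 were called lower. At an unadjusted p under 0.05 in limma, 3 were higher (with Acly) and 1 lower (Elovl6), beside 21.3% of all genes tested in either direction. Of all 10902 genes tested in this line, 1.33% were called higher, 0.899% lower and 2.23% in either direction. KO libraries lay wholly above WT libraries for Acly, Fads1 and Fads2, as for 8.53% of genes tested, and wholly below for Elovl6, as for 5.32%. The other 6 enzymes overlapped between groups. The median log2 fold change was 0.066 over the 10 enzymes and 0.024 over all genes tested.

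Fads2 was 94.97, 93.9, 109.0 and 106.8 FPKM in WT and 136.2, 129.3, 129.1 and 117.7 FPKM in KO libraries. Its lowest KO library, number 4, was still above its highest WT library, number 3 (log2 fold change 0.34 ± 0.07 SE, adjusted p = 0.0432). Fads1 was 44.7, 44.7, 49.6 and 45.8 FPKM in WT and 58.2, 55.0, 56.0 and 51.3 FPKM in KO libraries, with the same order of extremes (log2 fold change 0.25 ± 0.05 SE, adjusted p = 0.0494). For both genes, WT libraries 1 and 2 lay below WT libraries 3 and 4. The part of this split in the 2 calls was not tested. Both calls depended on which libraries were kept. Leaving out KO library 4 kept both, at adjusted p = 0.0314 for Fads2 and 0.0359 for Fads1. Leaving out any one of the other 7 libraries lost both, at adjusted p between 0.0604 and 0.151 for Fads2 and between 0.0644 and 0.163 for Fads1, with both genes higher in KO libraries each time. With all libraries kept, Fads2 passed under 8 of 10 other settings and Fads1 under 3. The summed level of the 7 fibroblast markers was 4.90 to 6.38 FPKM in WT and 6.42 to 9.29 FPKM in KO libraries. Of the 7, 2 were tested in limma and 1, Pdgfrb, was called higher (1.76 to 3.25 FPKM, adjusted p = 0.00869), beside 1.33% of all genes tested. The other, Col1a2, overlapped between groups (3.08 and 4.45 FPKM, adjusted p = 0.281). Among those not tested, Col1a1 (0.329 and 0.277 FPKM) and Pdgfra (0.508 and 0.486 FPKM) averaged lower in KO libraries. Acta2 was at 0 in all libraries, and Dcn and Lum were at 0 in KO libraries. The part of these markers in the Fads1 and Fads2 values was not tested.

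**Figure D2:**
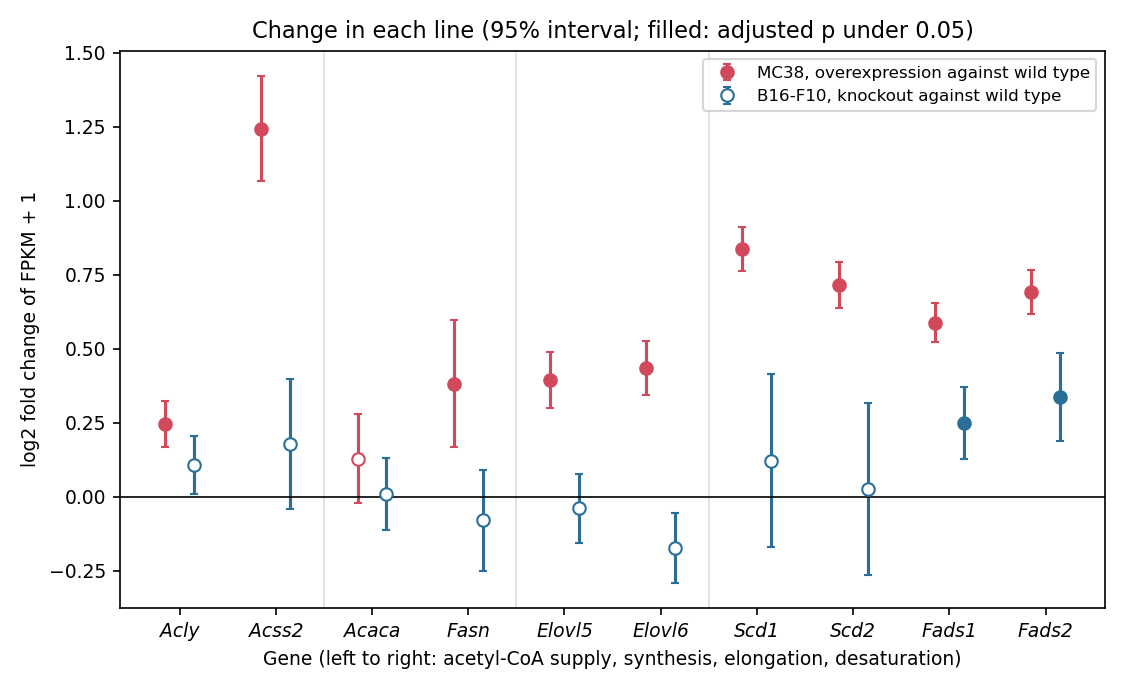
Log2 fold change of each enzyme on the log2(FPKM + 1) scale with its 95% interval, in MC38 (OE against WT) and B16-F10 (KO against WT), filled where the adjusted p was under 0.05. The MC38 values run from 0.13 for Acaca to 1.24 for Acss2, and the B16-F10 values from -0.17 for Elovl6 to 0.34 for Fads2.

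Scd1 and Scd2 did not pass in B16-F10, and their WT libraries fell into 2 pairs. WT libraries 1 and 2 were also below 3 and 4 for Acss2, Acaca, Elovl5, Elovl6, Fads1 and Fads2, but not for Acly and Fasn. Scd2 was 381.4, 374.2, 558.5 and 533.6 FPKM in WT and 476.0, 451.8, 448.2 and 472.9 FPKM in KO libraries. All KO libraries lay between WT libraries 1 and 2 below and 3 and 4 above (log2 fold change 0.02, 95% interval -0.27 to 0.32, adjusted p = 0.938). Scd1 was 40.6, 42.5, 61.6 and 58.7 FPKM in WT and 57.6, 54.6, 55.9 and 49.96 FPKM in KO libraries, again inside the WT range (log2 fold change 0.12, 95% interval -0.17 to 0.41, adjusted p = 0.640). The WT coefficient of variation was 21.3% for Scd1 and 21.2% for Scd2, against 6.04% and 3.08% in KO libraries. The summed melanocyte markers separated the same pairs of WT libraries but in the opposite direction, at 14419 and 14510 FPKM in WT libraries 1 and 2, 11296 and 11289 FPKM in WT libraries 3 and 4, and 14042 to 14571 FPKM in KO libraries, which lay near WT libraries 1 and 2. The part of the split between these libraries in the Scd1 and Scd2 values was not tested. The Scd1 interval includes the 0.34 measured for Fads2, and the Scd2 interval reaches 0.32.

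**Figure D3:**
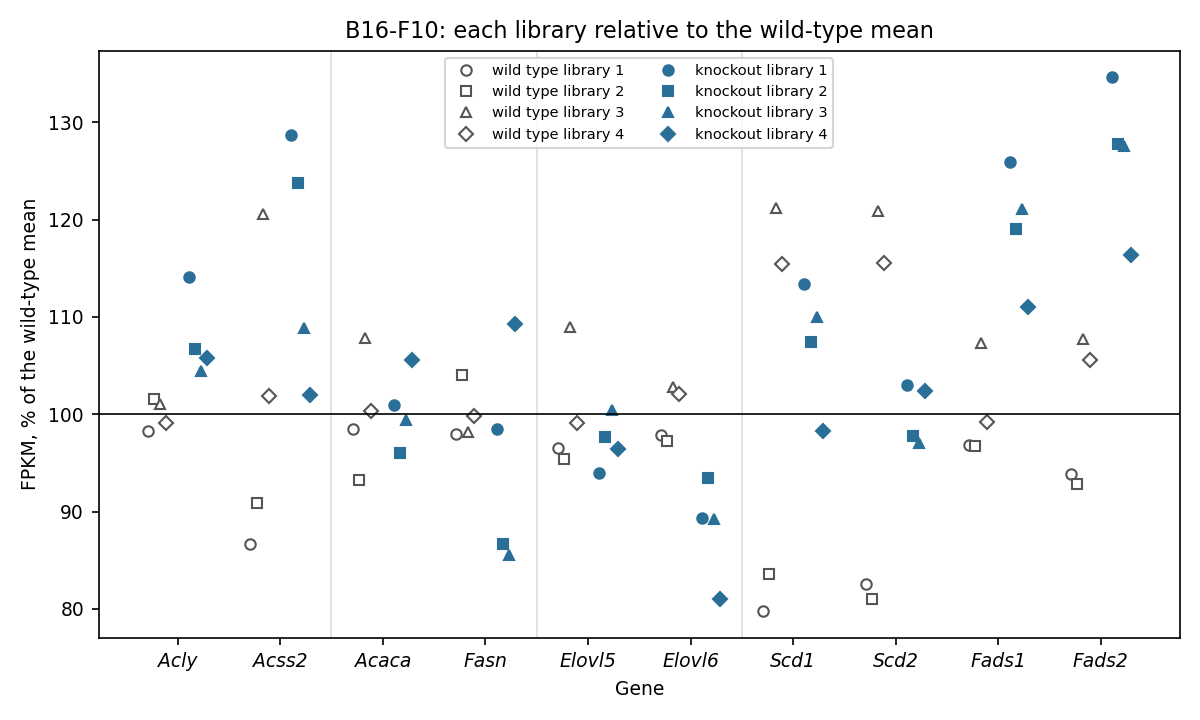
FPKM of each enzyme in each B16-F10 library as a percentage of the WT mean (open symbols WT, filled symbols KO, symbol shape the library number). WT libraries 3 and 4 lie above WT libraries 1 and 2 for all enzymes but Acly and Fasn, most widely for Scd1 and Scd2. The KO libraries of Scd2 lie between these pairs, and the KO symbols lie above all WT symbols for Acly, Fads1 and Fads2.

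Acly was 126.9, 131.1, 130.4 and 128.0 FPKM in WT and 147.3, 137.8, 134.9 and 136.6 FPKM in KO libraries. The groups did not overlap, but the change did not pass after adjustment (log2 fold change 0.11, 95% interval 0.01 to 0.20, adjusted p = 0.203). Acss2 was 3.74, 3.92, 5.20 and 4.39 FPKM in WT and 5.55, 5.33, 4.69 and 4.396 FPKM in KO libraries, which overlapped (log2 fold change 0.18, 95% interval -0.04 to 0.40, adjusted p = 0.335). That upper bound is far below the 1.24 measured for Acss2 in MC38, a different line and alteration whose difference was not tested.

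Fasn was 96.3, 102.3, 96.5 and 98.1 FPKM in WT and 96.8, 85.2, 84.1 and 107.4 FPKM in KO libraries. KO libraries 2 and 3 were below all WT libraries and KO library 4 was above them (log2 fold change -0.08, 95% interval -0.25 to 0.09, adjusted p = 0.590). Acaca was 21.5, 20.3, 23.5 and 21.9 FPKM in WT and 22.0, 20.9, 21.7 and 23.0 FPKM in KO libraries (log2 fold change 0.0075, 95% interval -0.11 to 0.13, adjusted p = 0.955), and its direction changed with the scaling of the libraries.

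Elovl6 was 21.4, 21.2, 22.5 and 22.3 FPKM in WT and 19.5, 20.4, 19.5 and 17.7 FPKM in KO libraries. All KO libraries were lower, but the change did not pass (log2 fold change -0.17, 95% interval -0.29 to -0.06, adjusted p = 0.108). Elovl5 was 36.4, 36.0, 41.2 and 37.4 FPKM in WT and 35.5, 36.9, 37.9 and 36.4 FPKM in KO libraries, which overlapped (log2 fold change -0.04, 95% interval -0.16 to 0.08, adjusted p = 0.714). For these 2 elongases, MC38 OE and B16-F10 KO values differed in sign, and that difference between lines was not tested.

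The order of levels was much alike in the 4 groups. Scd2 was the highest and Acss2 the lowest enzyme in each of them. Scd2 made up 36.3% of the summed FPKM of the 10 enzymes in MC38 WT, 40.0% in MC38 OE, 47.1% in B16-F10 WT and 45.5% in B16-F10 KO. Neighbours in that order whose libraries overlapped included Fads2 and Fasn in WT libraries of both lines, Scd1 and Elovl5 in MC38 WT, Fads1 and Fads2 in MC38 OE, and Acly and Fads2 in B16-F10 KO. Acly came directly after Scd2 in all groups. The 2 tables were fitted separately, so these levels were not tested between lines.

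Enzymes of the same step were also compared as ratios within a library, 4 pairs in each line, by a two-sided exact permutation test with Benjamini-Hochberg adjustment over the 8 tests. Ratios are printed as plain FPKM ratios, and their differences and tests use log2 ratios with 1 FPKM added to both genes. The smallest p such a test can give with these libraries is 0.0286, so the ratios of MC38 by themselves could not pass the threshold after adjustment. In MC38 the Acss2 to Acly ratio was 0.0110 to 0.0150 in WT and 0.0352 to 0.0415 in OE libraries (log2 difference 1.00 with 1 FPKM added, exact permutation p = 0.0286, adjusted p = 0.0762). The added FPKM shrinks this difference because Acss2 was low, and with 0.1 FPKM added it was 1.45. The Scd1 to Scd2 ratio was 0.163 to 0.175 in WT and 0.184 to 0.187 in OE libraries (0.12, exact permutation p = 0.0286, adjusted p = 0.0762). The Fads1 to Fads2 ratio was 1.09 to 1.13 in WT and 1.01 to 1.05 in OE libraries (-0.10, exact permutation p = 0.0286, adjusted p = 0.0762). These 3 ratios did not overlap between groups. The Elovl5 to Elovl6 ratio overlapped in MC38 (-0.04, exact permutation p = 0.429, adjusted p = 0.486).

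In B16-F10 no ratio passed, and all 4 overlapped between groups. Elovl5 to Elovl6 was 1.68 to 1.83 in WT and 1.81 to 2.06 in KO libraries (0.13, exact permutation p = 0.0857, adjusted p = 0.137). Fads1 to Fads2 was 0.429 to 0.476 in WT and 0.426 to 0.436 in KO libraries (-0.09, exact permutation p = 0.0857, adjusted p = 0.137). Scd1 to Scd2 was 0.106 to 0.114 in WT libraries, although both genes varied widely there, and 0.106 to 0.125 in KO libraries (0.10, exact permutation p = 0.143, adjusted p = 0.190). Acss2 to Acly gave a log2 difference of 0.07 (exact permutation p = 0.486, adjusted p = 0.486).

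Other genes of lipid metabolism were read from 6 lists. Their MC38 counts stand beside 23.9% of all genes tested that were called higher and 23.6% called lower. In MC38, of the genes that supply citrate and NADPH, 5 of 7 tested rose and 0 fell (median log2 fold change 0.19). At an unadjusted p under 0.05 in limma, 1 was lower, beside 54.3% of all genes tested in either direction. Idh1, a cytosolic source of NADPH, rose from 8.585 to 19.4 FPKM (1.09), and the citrate carrier Slc25a1 from 26.9 to 36.7 FPKM (0.43). Of the other enzymes of synthesis and elongation, 3 of 12 rose and 3 fell (median 0.04), both shares near those of all genes. The enoyl-CoA reductase Tecr, which completes each elongation cycle, rose from 61.1 to 77.8 FPKM (0.34), and the dehydratase Hacd4 from 0.883 to 2.04 FPKM (0.69). Hacd4 passed the filter only through OE libraries, so its direction was fixed. Its relative Hacd2 fell from 8.37 to 6.67 FPKM (-0.28), a call lost when each chromosome was centred (adjusted p = 0.0666), and Mid1ip1, a partner of acetyl-CoA carboxylase, fell from 14.3 to 11.2 FPKM (-0.33).

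The electron donors of desaturation rose with the desaturases in MC38. Cytochrome b5 (Cyb5a) rose from 19.8 to 32.2 FPKM (0.67) and its reductase Cyb5r3 from 92.9 to 117 FPKM (0.34). Fads3, a relative that lies beside Fads1 and Fads2, fell from 9.04 ± 0.66 (SD, n = 4) to 3.36 ± 0.14 FPKM (SD, n = 3), a log2 fold change of -1.20 (adjusted p = 2.68e-07). Fads3 thus moved against Fads1 and Fads2. Fads2 and Fads3 coding sequences were 69.8% identical, with a longest shared run of 54 bases. Of this list, 3 of 5 tested genes rose and 1 fell (median 0.20), beside 23.9% and 23.6% of all genes tested. The other stearoyl-CoA desaturase genes, Scd3 and Scd4, were below 1 FPKM in both lines and were not tested.

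Among regulators, 6 of 12 tested genes rose and 4 fell in MC38 (median 0.15), beside 23.9% and 23.6% of all genes tested. Insig1, which holds sterol regulatory element-binding proteins back in the endoplasmic reticulum and is itself a target of theirs, rose from 13.5 to 36.8 FPKM (1.38), and Insig2 from 6.705 to 9.27 FPKM (0.41). Srebf1 rose from 35.4 ± 3.0 (SD, n = 4) to 43.5 ± 1.4 FPKM (SD, n = 3; 0.29, adjusted p = 0.00268), and Srebf2 from 30.9 ± 2.1 to 35.8 ± 1.3 FPKM (0.21, adjusted p = 0.00957). Scap, the escort of these proteins, fell from 17.2 to 14.0 FPKM (-0.28), and Trib3 from 138 to 66.5 FPKM (-1.04). Mlxipl, which encodes the carbohydrate-responsive activator ChREBP, and Nr1h3, which encodes the liver X receptor alpha, averaged under 0.1 FPKM in both MC38 groups and were not tested.

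Genes that use fatty acids are given beside the 23.9% of all MC38 genes tested that were called higher and the 23.6% called lower. Of those for activation and glycerolipid assembly, 6 of 16 tested rose and 4 fell (median -0.04), the latter a share near the background. The phosphatidate phosphatase Lpin1 rose from 1.51 to 4.84 FPKM (1.22) and the acyl-CoA synthetase Acsl4 from 9.09 to 14.2 FPKM (0.59). The triglyceride enzyme Dgat2 fell from 5.09 to 2.94 FPKM (-0.63) and Agpat3 from 41.3 to 30.4 FPKM (-0.43). Of those for uptake and oxidation, 11 of 17 tested rose and 1 fell (median 0.22). Cpt1a, the gate of mitochondrial oxidation, rose from 2.85 to 7.05 FPKM (1.06), and the binding protein Fabp5 fell from 35.7 to 19.8 FPKM (-0.82). All the genes named in these lists as risen or fallen passed limma's test over all genes.

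**Figure D4:**
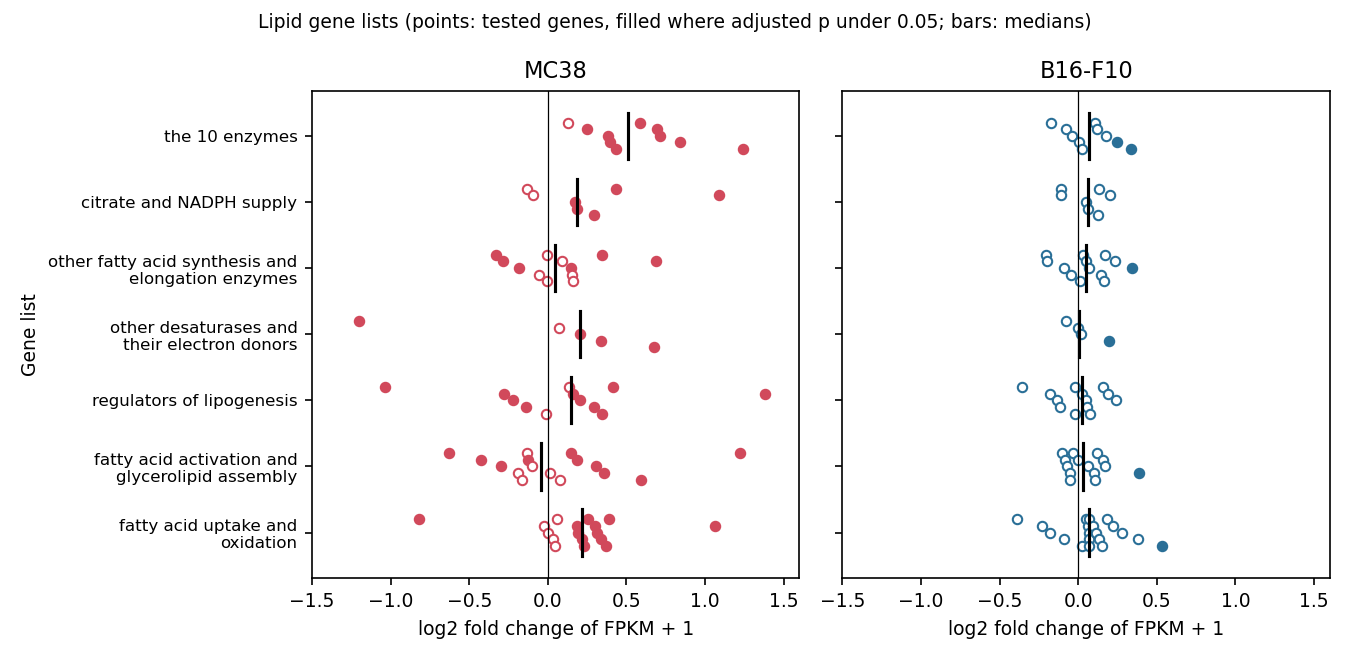
Log2 fold change on the log2(FPKM + 1) scale of each tested gene in the 10 enzymes and 6 other lipid gene lists, filled where the adjusted p was under 0.05, with a bar at each list's median. In MC38 the median is 0.51 for the 10 enzymes and lies between -0.04 and 0.22 for the other lists, and in B16-F10 the medians run from 0.0071 to 0.070.

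In B16-F10 few genes of these lists passed, beside 2.23% of all genes tested in this line. With so low a share, 0 calls in a short list do not set it apart. None of 7 tested genes of citrate and NADPH supply and none of 13 regulators was called (0 higher and 0 lower by limma in each). At an unadjusted p under 0.05, 0 genes of the first list passed, and 1 higher and 2 lower regulators did, beside 21.3% of all genes tested. The most expressed of the first list, Mdh1 (158 to 172 FPKM, adjusted p = 0.407) and Pgd (118 to 109 FPKM, adjusted p = 0.324), overlapped between groups. Among regulators, Srebf1 was 36.8 ± 1.7 FPKM in WT and 43.7 ± 4.0 FPKM in KO libraries (SD, n = 4 each), with no overlap but no call (log2 fold change 0.24, limma adjusted p = 0.0887). Srebf2 (63.2 and 66.7 FPKM, adjusted p = 0.405) and Insig1 (66.6 and 75.8 FPKM, adjusted p = 0.320) overlapped. Mlxipl was listed at 0 in every library and Nr1h3 averaged 0.0624 and 0.156 FPKM.

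The other 4 lists had 1 call each in B16-F10, all higher, beside 1.33% of all genes tested that were called higher. Of 4 tested genes of the desaturase list it was Cyb5r3 (89.3 to 103 FPKM, 0.20, adjusted p = 0.0467), and of 13 of the synthesis list the mitochondrial enzyme Oxsm (3.75 to 5.01 FPKM, 0.34, adjusted p = 0.0490). Of 14 genes of glycerolipid assembly it was Lpcat3, which loads polyunsaturated chains into phospholipids (44.4 to 58.4 FPKM, 0.39, adjusted p = 0.0104). Of 20 genes of uptake and oxidation it was the coactivator Ppargc1a (11.3 to 17.0 FPKM, 0.54, adjusted p = 0.0408). Lpcat3 lost its call without KO library 2 (adjusted p = 0.0610) or KO library 3 (adjusted p = 0.06004). Cyb5r3, Oxsm and Ppargc1a each lost theirs without any one library other than KO library 4, at adjusted p between 0.0524 and 0.163. With all libraries kept, the Cyb5r3 and Oxsm calls were each lost under 6 other settings, the Ppargc1a call under 2 and the Lpcat3 call under 1. Fads3 averaged 0.338 FPKM in WT and 0.270 FPKM in KO libraries and was not tested.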

How the data were processed

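Polyadenylated RNA of 15 libraries was prepared with a stranded TruSeq mRNA kit, per the labels' protocols. For each line the authors deposited one table of FPKM by gene symbol, used here as it stands. GRCm39 and DESeq2 are named in the submitters' processing notes, while aligner, annotation, counting method and strand setting were not given in the sources used here. Of all columns of the tables, 0 belonged to no sample of the series. Libraries were grouped by title.

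Each line was fitted alone with limma 3.58.1 (R 4.3.3, eBayes with a trend) on log2(FPKM + 1), for genes with a mean of at least 1 FPKM over the line's libraries, with Benjamini-Hochberg adjustment over all genes tested and a threshold of 0.05. The 10 enzymes and all lists were chosen with earlier results of these data known. The named genes were the 10 enzymes and Ssbp4, then of each other list and line up to 2 called genes with the highest and up to 2 with the lowest log2 fold change, or the 2 most expressed where none was called, and Srebf1, Srebf2, Mlxipl and Nr1h3 throughout. A gene that this rule names is not reported here. Gss and Ggt7 were added for their overlap with Acss2. Fads3 in B16-F10, Scd3, Scd4 and single marker genes were added after their values were seen.

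Depth was estimated from the steps of low FPKM values with GENCODE transcript lengths on GRCm38, at 31.95 to 37.85 M fragments for the MC38 libraries and 31.95 to 48.35 M fragments for those of B16-F10. Between 81.1% and 85.2% of these low values came out as whole fragments (within 0.1), too few to recover counts. So no count test between groups was run and no counting interval is given. The limma script was tested on simulated data. Within a group, all pairs of libraries differed by more than sampling noise on the estimated counts (chi-square divided by its degrees of freedom, 8.77 to 58.2). These counts are approximate, so the size of that excess is uncertain. No library was treated as one deposited again. This does not show that they are separate cultures. Alternatives were another pseudocount (0.1), other filters, 2 scalings, a robust variance model, library weights, a replicate block, centring per chromosome and leaving out each library. Promoters come from RefSeq on GRCm38.p6, another build than the authors', and serve as sequences only. Figures were drawn with matplotlib 3.10.9.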

Additional observations from a re-analysis of the deposited data

Results flagged for a closer look

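Of 45 groups of 4 libraries examined for a library far from the other 3, 2 had one, where chance gives about 1 in 20. Acss2 in MC38 WT library 2 was 1.10 FPKM against a group median of 1.40 and a maximum of 1.43 FPKM. It lay below every OE library, as did the other WT libraries. Ssbp4 in MC38 WT library 1 was 13.2 FPKM against a median of 17.2 and a maximum of 17.6 FPKM.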

How the results depend on the processing

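In MC38, between 3906 and 5463 genes were called under the alternatives against 5107, and 8 to 10 of the enzymes against 9. In B16-F10 the 243 calls became 140 with a minimum mean of 0.1 FPKM, 73 with no filter, 776 with library weights, 160 with each chromosome centred (an alternative chosen after seeing the data) and 23 to 414 when 1 library was left out. The calls among the 10 enzymes, 2 in B16-F10, became 1 with a minimum of 0.1 or 5 FPKM, median-of-ratios scaling, a robust variance model or centring, 0 with no filter, and 0 to 2 when 1 library was left out. Of the B16-F10 calls, 59.7% were higher, against 73.1% with libraries scaled to a common total, 42.9% with median-of-ratios scaling and 38.8% with centring. Over all settings that kept every library, adjusted p ran from 0.0167 to 0.155 for Fads1 and from 0.00946 to 0.155 for Fads2.

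Directions reversed only for B16-F10 enzymes that had not passed. Acaca gave log2 fold changes of -0.012 with median-of-ratios scaling, -0.0019 with library weights, -0.024 with centring, -0.024 without WT library 2 and -0.015 without KO library 4. Elovl5 gave 0.0019 without WT library 3, and Scd2 -0.059 without WT library 1 and -0.068 without WT library 2. Leaving out 1 library moved Acaca between -0.024 and 0.043, Elovl5 between -0.061 and 0.0019, and Scd2 between -0.068 and 0.12. The cause was not tested.

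The labels number replicates in each group, but libraries with the same number did not deviate together (correlations across genes -0.288, -0.066 and -0.074 in MC38, and -0.111, -0.176, 0.165 and -0.298 in B16-F10). With the replicate number as a block, 12 genes and 0 of the 10 enzymes were called in B16-F10, and Ssbp4 and Lpcat3 there had adjusted p = 0.0890 and 0.0928. In MC38 the block gave 3906 called genes. The number of libraries and the unknown counts limit what small changes can be seen.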
